A study of Mus musculus with 15 samples.

Results

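Mouse embryonic stem cells (ESCs) that lacked Atg7 were taken 2 days into the change to epiblast-like cells and set against ESCs at day 0, across every gene of the deposited RNA-seq counts. The comparison uses 6 of the series' 15 libraries. They are the 3 libraries labelled Atg7 KO at day 2 (KO cells below) and the 3 labelled ESC, whose genotype label is Control and whose time point is day 0. A further 3 libraries, labelled Control at day 2 (control day 2 below), received the same 2 days of induction and give the test of the genotype at 1 time point. All 9 carry the cell line label E14TG2, a male mouse ESC line. The protocol describes ESC culture on growth-arrested mouse embryonic fibroblasts with LIF, the MEK inhibitor PD0325901 and the GSK3 inhibitor CHIR99021. Induction was on fibronectin in N2B27 medium with activin A, bFGF and knockout serum replacement, and the induction steps name no feeders, LIF or inhibitors. The labels do not say how the knockout was made, how many clones it rests on or whether replicates were separate cultures. The p-values therefore measure only the spread between these libraries. KO day 2 and ESC differ in genotype, in day and in medium at once, and by the protocol in feeders. The ESC libraries also stood apart in Hprt, chromosome X and fibroblast RNA, as described below, and their origin was not tested. A KO library from day 0 was not analysed here, so a KO effect present before induction and one that arose during it cannot be told apart.

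ATG7 is the E1-like enzyme of autophagy. It activates ATG12, which is joined to ATG5, and the LC3 and GABARAP proteins, which are joined to the lipid of the forming autophagosome. Cargo receptors such as p62 (encoded by Sqstm1) bind LC3 and bring proteins and organelles to the lysosome. In naive ESCs, LIF and the 2 inhibitors hold up a network of transcription factors that includes Nanog, Esrrb, Klf4 and Tfcp2l1. On release into FGF and activin the network is normally taken down, while Pou5f1 and Sox2 stay on and formative genes such as Otx2, Fgf5, Pou3f1 and Dnmt3b come on. The study's title gives the question as autophagy's part in that change through the breakdown of NANOG protein. The values here are mRNA counts and say nothing of the protein.

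The ESC libraries and the KO libraries each stood apart from the other groups in ways that are not part of the design. Levels are given in CPM, the read count of a gene scaled to the size of its library, here with the TMM factors of edgeR. Hprt, the purine salvage enzyme that E14TG2a-type lines are known to lack, had 1.78, 1.87 and 1.67 CPM in KO cells, 2.51, 2.22 and 2.29 CPM in control day 2 and 183, 203 and 199.97 CPM in ESC. The difference was -6.78 ± 0.12 on the log2 scale between KO cells and ESC (± SE throughout, from 1 fit of all 15 libraries, 3 a group). This SE and the intervals pool the spread of all groups, and so can understate the spread between ESC libraries. Whether the ESC libraries come from another E14 subline was not tested. The median log2 fold change of KO cells over ESC was 0.47 over the 407 tested genes of chromosome 18 and 0.27 over the 616 of chromosome X, against 0.02 over all genes. Over control day 2, the medians of KO cells were 0.56 for chromosome 18 and -0.10 for X. The 8 tested genes of chromosome Y had medians of -0.61 over ESC and 0.80 over control day 2. Control day 2 over ESC had medians of -0.13 for chromosome 18, 0.39 for X and -1.53 for Y. On chromosome 18 the KO libraries thus stood apart from both other groups, and on X both day 2 groups stood apart from ESC. ESC libraries also differed in fibroblast RNA. The summed level of 26 fibroblast markers, of which none was at 0 in any of these 9 libraries, came to 862, 1424 and 1022 CPM in KO cells, 734, 691 and 646 CPM in control day 2, and 2697, 1395 and 414 CPM in ESC 1, 2 and 3. ESC 3 was the library farthest from its group, with a chi-square per degree of freedom of 34.2 and 26.0 against ESC 1 and ESC 2, and 6.2 between those. Total counts ran from 16318652 to 23371546 in the 6 libraries compared.

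Of 24982 genes in the tables, 15696 passed the filter on low counts. In the quasi-likelihood test of edgeR at an adjusted p under 0.05, 10248 of them changed in KO cells against ESC (65.3%). There were 5215 genes higher in KO cells (33.2%) and 5033 lower (32.1%), of which 2201 (14%) were higher and 1324 (8.44%) lower by at least 2-fold. A gene was taken as held at the ESC level where the whole 95% interval of its log2 fold change lay within 1.5-fold. By this rule 5160 genes were held (32.9%), 2362 of them (15%) also past the test, with small changes. A gene with high counts has a narrower interval and meets this rule more easily. For 2650 genes (16.9%) neither could be said. The 6 libraries did not overlap between groups for 10125 genes (64.5%). Between KO cells and control day 2, 6556 genes differed (41.8%), 3200 higher in KO cells (20.4%) and 3356 lower (21.4%). Between control day 2 and ESC, 11072 genes differed (70.5%) and 4693 were held (29.9%). The 41 gene lists used below hold 845 entries, of which 819 were tested, 24 fell under the filter and 2 were not in the tables; counts are of tested members.

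Each list is read against the shares of all genes: 33.2% rose, 32.1% fell and 32.9% were held. The results on pluripotency and stress below turn on Nanog and on targets of the stress factor ATF4 such as Asns and Chac1. The 250 bases before the start of each are printed here from RefSeq (GRCm38.p6; for Nanog at 1 of 2 listed starts), 5′ to 3′ on the gene's strand. Capitals mark, in Nanog, the OCT4 and SOX2 composite motif (TTTGCAT, any base, ACAATG), and, in Asns and Chac1, the CEBP and ATF composite (TGATGNAA, printed on its reverse strand in Chac1).
Nanog, chr6:122707239-122707488, + strand: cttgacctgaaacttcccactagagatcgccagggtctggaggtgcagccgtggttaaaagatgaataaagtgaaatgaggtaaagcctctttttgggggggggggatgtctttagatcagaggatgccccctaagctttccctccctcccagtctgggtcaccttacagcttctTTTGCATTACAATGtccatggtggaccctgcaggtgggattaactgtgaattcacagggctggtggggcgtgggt
Asns, chr6:7693210-7693459, - strand: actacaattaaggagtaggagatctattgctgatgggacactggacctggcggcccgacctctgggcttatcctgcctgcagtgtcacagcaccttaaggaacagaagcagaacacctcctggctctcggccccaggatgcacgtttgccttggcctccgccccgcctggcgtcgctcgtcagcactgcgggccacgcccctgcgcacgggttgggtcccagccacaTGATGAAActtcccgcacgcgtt
Chac1, chr2:119350992-119351241, + strand: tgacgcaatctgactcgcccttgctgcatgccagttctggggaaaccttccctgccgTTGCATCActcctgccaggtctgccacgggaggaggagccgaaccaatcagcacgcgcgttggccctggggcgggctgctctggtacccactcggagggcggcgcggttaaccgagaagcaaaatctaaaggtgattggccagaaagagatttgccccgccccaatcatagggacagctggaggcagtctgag
The first motif begins 75 bases before the Nanog start. On either strand it is in the window of 1 of 27025 genes (0.0037%), Nanog, and so of 1 of the 14 naive genes matched to the table of promoters. The second is in the window of 1056 genes (3.91%), and of 5 of the 18 matched members of the stress list, Asns, Chac1, Nupr1, Slc7a11 and Vldlr. The search allowed no mismatch, so genes with a variant of either motif were not counted, and Nanog need not be the only one with such a site. A match is a description of the letters and not a bound site.

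Atg7 itself (ENSMUSG00000030314.16, chr6:114643097-114860614, + strand, GRCm38) had 6.84, 7.53 and 7.11 CPM in KO cells, 14.6, 12.1 and 14 CPM in control day 2 and 17.5, 18.7 and 16.6 CPM in ESC. Every KO library was below every other one of the 9. The log2 fold change was -1.30 ± 0.11 against ESC (adjusted p = 2.99e-08) and -0.92 ± 0.11 against control day 2 (adjusted p = 8.34e-06), so reads from the gene remained in KO cells. The labels name no deleted exon, and counts per gene do not show whether the remaining transcript encodes an active enzyme.

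Of 16 tested conjugation genes, Atg7 among them, 10 rose, 4 fell and 7 were held, with a median of 0.30. Against control day 2, 6 were higher and 5 lower in KO cells, with a median of 0.05. Atg12, a substrate of ATG7, had 200.2, 213 and 200.2 CPM in KO cells, 129.7, 137 and 129 CPM in control day 2 and 87.1, 106 and 98 CPM in ESC (1.08 ± 0.07, adjusted p = 7.34e-10); it lies on chromosome 18. Atg16l2, a relative of the ATG12-ATG5 partner ATG16L1, rose by 1.32 ± 0.15, with -0.18 against control day 2. Atg3, the E2-like enzyme that passes LC3 on to its lipid, had 13.1, 14.3 and 15.8 CPM in KO cells, 19.7, 18.6 and 19.2 CPM in control day 2 and 25.5, 19.9 and 23.8 CPM in ESC (-0.68 ± 0.11, adjusted p = 3.54e-05). Atg5 and the protease gene Atg4b rose by less than 1.5-fold (0.28 ± 0.06 and 0.37 ± 0.06) and count among the held genes, as do Atg16l1 (0.05 ± 0.07) and Map1lc3b (-0.15 ± 0.07), which did not pass the test. In the 21 genes of initiation and membrane supply 7 rose, 8 fell and 10 were held. The initiating kinase genes Ulk1 and Ulk2 moved apart. Ulk1 had 280.2, 293 and 298 CPM in KO cells against 475, 491 and 566 CPM in ESC (-0.82 ± 0.06), and Ulk2 had 28.4, 28.7 and 30.9 CPM in KO cells, 24, 25.1 and 27.8 CPM in control day 2 and 9.47, 9.61 and 15.1 CPM in ESC (1.36 ± 0.13). Atg9a, which codes for the membrane scramblase of the vesicles that seed autophagosomes, rose by 0.87 ± 0.07, with -0.07 against control day 2.

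Most cargo receptor genes passed the test, many with changes under 1.5-fold. Of 20 tested, 9 rose and 7 fell, with a median of 0.19. The number held within 1.5-fold was 12 (60%, against 32.9% of all genes), and 8 of these also passed the test. Sqstm1 had 207, 202 and 200.2 CPM in KO cells, 169, 180.4 and 167 CPM in control day 2 and 183, 168 and 173 CPM in ESC. Its KO libraries lay above all others, by 0.22 ± 0.05 against ESC (adjusted p = 0.00122) and 0.24 ± 0.05 against control day 2 (adjusted p = 0.00139). Nbr1, a receptor that works with p62, had 285, 286 and 284 CPM in KO cells, 220.3, 223 and 221 CPM in control day 2 and 207, 213 and 233 CPM in ESC (0.39 ± 0.05 against ESC, adjusted p = 2.94e-06; 0.36 ± 0.05 against control day 2, adjusted p = 2.7e-05). The largest rise was that of the mitophagy receptor and hypoxia target Bnip3, with 41.6, 42.1 and 38.9 CPM in KO cells against 7.66, 10.6 and 9.56 CPM in ESC (2.14 ± 0.31); control day 2 had 34.6, 35.3 and 35.4 CPM, close to KO. The ER-phagy receptors Ccpg1 and Retreg1 rose by 0.86 ± 0.09 and 1.05 ± 0.16, while the ferritin receptor Ncoa4 and the mitophagy receptor Phb2 fell (-0.85 ± 0.08 and -0.86 ± 0.07). Of 29 lysosome genes, 20 were held (69%), and 8 rose and 12 fell, with a median of 0.01. The transcription factors that drive the list, Mitf and Tfeb, fell (-1.81 ± 0.11 and -1.34 ± 0.09). Against control day 2 Mitf was higher in KO cells (1.09) and Tfeb lower (-0.29, a call lost without control 1, control 2 or KO 1). The lysosomal calcium channel gene Mcoln1 rose by 0.94 ± 0.08, with -0.32 against control day 2.

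Most of the naive network was down in KO cells after 2 days, but Nanog was not. Of 20 naive genes, 12 fell, 3 rose and 8 were held, with a median of -0.54. Nanog (chr6:122707489-122714633, + strand) had 1121, 1181 and 1198 CPM in KO cells, 551, 493 and 558 CPM in control day 2 and 1069, 1162 and 1431 CPM in ESC. KO and ESC libraries overlapped, and all of both lay above control day 2. The log2 difference from ESC was -0.07 ± 0.10 (95% interval -0.27 to 0.14, adjusted p = 0.573), which keeps Nanog mRNA within 1.5-fold of the ESC level, and that from control day 2 was 1.13 ± 0.10 (adjusted p = 5.08e-07). The naive reporter genes Dppa5a (0.11 ± 0.06) and Tcl1 (0.04 ± 0.07) were held as well, as were Sox15 (0.20 ± 0.09) and Dppa3 (-0.01 ± 0.15), the last coding for a protector of methylation marks. Their control day 2 values were no further than 1.5-fold from ESC, unlike that of Nanog.

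Esrrb, Klf4, Tfcp2l1 and Nr0b1, which fell furthest among those described here, were also low in control day 2. Esrrb, an orphan nuclear receptor of the naive network, had 202, 234 and 205 CPM in KO cells, 227, 211 and 215 CPM in control day 2 and 893, 913 and 764 CPM in ESC, a log2 fold change of -2.002 ± 0.07 (adjusted p = 2.57e-12), with -0.03 ± 0.07 between KO and control (adjusted p = 0.799). The day 2 groups overlapped, well below ESC. Klf4, a target of LIF signalling, had 122, 147 and 152 CPM in KO cells, 123, 118 and 119 CPM in control day 2 and 533, 549.6 and 654 CPM in ESC (-2.04 ± 0.10, adjusted p = 8.35e-11), so that all day 2 libraries were far below ESC. Tfcp2l1 and Nr0b1, which codes for the corepressor DAX1, fell likewise (-1.62 ± 0.07 and -2.82 ± 0.17). In Klf2, Nr5a2 and Prdm14 the KO libraries lay between the other groups without overlap, in contrast to Klf5, Gbx2 and Tbx3, which fell (-1.17 ± 0.13, -0.86 ± 0.19 and -0.43 ± 0.06) and whose log2 fold changes against control day 2 were -0.37, -0.17 and -0.07. Klf2, the factor that MEK inhibition stabilizes, had 91.7, 88.7 and 109.8 CPM in KO cells, 55.9, 43.1 and 59.2 CPM in control day 2 and 180.2, 167 and 171 CPM in ESC (-0.84 ± 0.11 against ESC, adjusted p = 7.91e-06; 0.87 ± 0.12 against control, adjusted p = 2.8e-05). Nr5a2, an activator of Pou5f1, had 58.1, 53.9 and 53.01 CPM in KO cells, 34.9, 30.2 and 36.7 CPM in control day 2 and 122, 139 and 116 CPM in ESC (-1.19 ± 0.08 and 0.69 ± 0.09). Prdm14, a repressor of FGF signalling and of DNA methylation, had 43.8, 43.5 and 45.98 CPM in KO cells, 20.5, 21.3 and 23.03 CPM in control day 2 and 51.8, 55.96 and 101 CPM in ESC (-0.64 ± 0.17 and 1.04 ± 0.18).

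Spic and Zfp42 were above ESC. Spic, a factor that works with NANOG, had 17.3, 15.1 and 18.3 CPM in KO cells, 2.06, 1.94 and 1.56 CPM in control day 2 and 7.05, 7.31 and 10.7 CPM in ESC. It rose in KO cells (1.02 ± 0.22, adjusted p = 0.000777) and stood 3.19 ± 0.25 above control day 2 (adjusted p = 2.19e-07), where every library was under every ESC library. Zfp42, which codes for the ESC marker REX1, had 296, 316 and 308 CPM in KO cells, 239, 241 and 237 CPM in control day 2 and 126, 127 and 135 CPM in ESC (1.24 ± 0.05 and 0.36 ± 0.05). Over the naive list 10 genes were higher and 3 lower in KO cells than in control day 2 (6 lower with the fibroblast collagen level as a covariate). Zfp57, which guards imprints, was lower, with 297, 308 and 297 CPM in KO cells, 525, 532 and 478 CPM in control day 2 and 706, 618 and 499 CPM in ESC (-1.01 ± 0.09 and -0.77 ± 0.09).

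**Figure D1:**
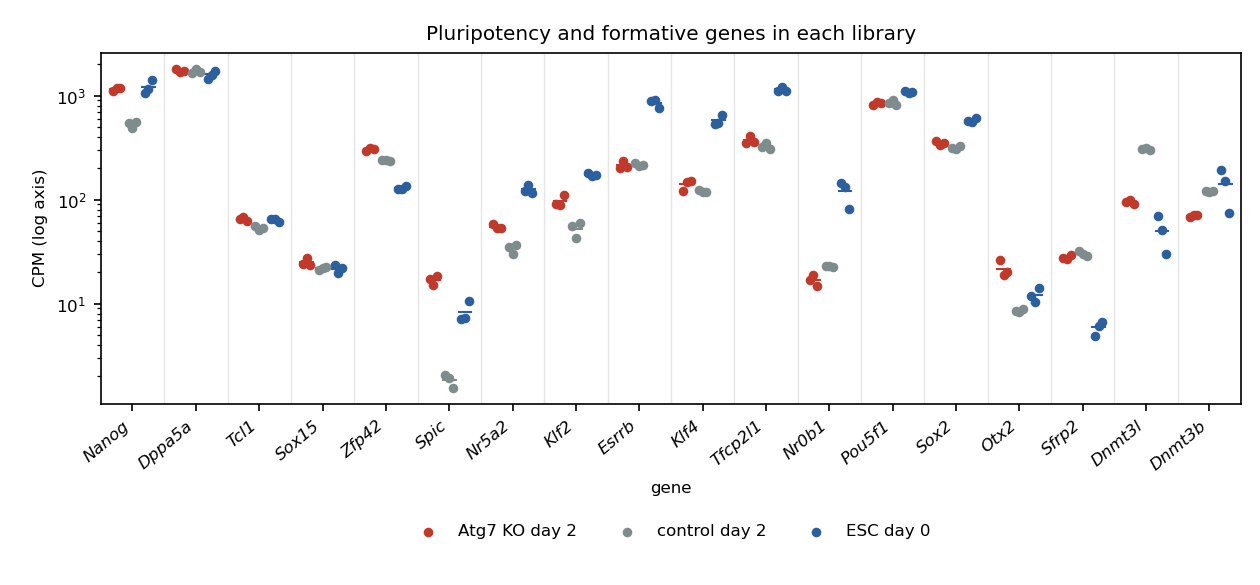
CPM (log axis) of 18 pluripotency genes in each library; dots are the 3 libraries of KO day 2, control day 2 and ESC, left to right, and lines are their means. Nanog lies at 1121 to 1198 CPM in KO cells and 1069 to 1431 CPM in ESC, against 493 to 558 CPM in control day 2, while Esrrb and Klf4 are low in both day 2 groups.

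General pluripotency genes fell mildly and none rose: of 16 tested, 13 fell and 6 were held, with a median of -0.66. Pou5f1 had 819, 876 and 842 CPM in KO cells, 845, 909.6 and 814 CPM in control day 2 and 1098, 1068 and 1088 CPM in ESC, a change of -0.36 ± 0.05 (adjusted p = 1.77e-05) that stayed within 1.5-fold. Sox2, its partner on the composite motif, had 369, 336 and 349 CPM in KO cells, 313, 310.4 and 326 CPM in control day 2 and 566, 559 and 610.3 CPM in ESC (-0.72 ± 0.05, adjusted p = 9.89e-09). Both fell in each day 2 group. Between KO and control day 2, Pou5f1 was at -0.02, not called. Sox2 was 0.15 higher in KO cells, a call lost without control 1, control 2, KO 1 or KO 3. Larger falls were seen for Zfp296 (-1.84 ± 0.08), for the Nodal coreceptor Tdgf1 (-1.76 ± 0.15) and for Sall4 (-1.26 ± 0.06). Utf1 had 77.2, 88.1 and 86.6 CPM in KO cells, 242, 220.4 and 228 CPM in control day 2 and 243, 188 and 119 CPM in ESC; KO cells were below ESC (-1.13 ± 0.16) and below control day 2 (-1.45 ± 0.16, adjusted p = 4.57e-06). Epcam, the epithelial adhesion gene, kept its ESC level in KO cells (103, 108 and 111 CPM, against 206, 217 and 206 CPM in control day 2 and 112, 119.97 and 84.4 CPM in ESC), with a log2 fold change of -0.97 ± 0.10 against control day 2 (adjusted p = 2.26e-06).

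About as many formative genes rose as did not. Of 21 formative and primed genes, 11 rose, 5 fell and 3 were held (1 without KO 1), with a median of 0.32. In KO cells 4 were higher and 10 lower than in control day 2. The Wnt antagonist gene Sfrp2 had 27.6, 26.8 and 29.4 CPM in KO cells, 32.3, 30.2 and 28.997 CPM in control day 2 and 4.90, 6.16 and 6.73 CPM in ESC, a rise of 2.23 ± 0.13 (adjusted p = 3.12e-10). Sox4 rose by 1.66 ± 0.08 and Tead2, of the Hippo pathway, by 0.52 ± 0.05. Otx2, the factor that directs the move to formative cells, had 26.01, 19.06 and 20.01 CPM in KO cells, 8.59, 8.36 and 8.82 CPM in control day 2 and 11.9, 10.4 and 14.05 CPM in ESC. It rose by 0.84 ± 0.16 (adjusted p = 0.000171) and was 1.33 ± 0.16 above control day 2 (adjusted p = 7.77e-06). Its partner Pou3f1 (OCT6) went the other way, with 1.73, 2.25 and 2.23 CPM in KO cells, 6.70, 5.43 and 6.91 CPM in control day 2 and 5.17, 2.57 and 3.56 CPM in ESC (-0.86 ± 0.27 against ESC, adjusted p = 0.00947; -1.61 ± 0.25 against control, adjusted p = 0.000101). The fall against ESC did not pass the test without ESC 1. Fgf5, the classic formative marker, was near 0 at day 2, at 0.0495, 0.0832 and 0 CPM in KO cells, 0.0558, 0.0472 and 0 CPM in control day 2 and 0.537, 0.406 and 0.198 CPM in ESC (-2.91 ± 0.97, or -3.68 without KO 2). Sox3 rose by 2.01 ± 0.36 and Lef1 by 1.24 ± 0.35, or by 2.65 and 2.10 without ESC 3. Lin28b and the FGF target Etv5 fell (-0.90 ± 0.13 and -0.83 ± 0.09).

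DNA methylation genes split by enzyme. Of 11 tested, 3 rose, 7 fell and 1 was held (3 without ESC 3), with a median of -0.64. Dnmt3a, a de novo methyltransferase, had 174, 150.2 and 159 CPM in KO cells, 199.9, 199 and 208 CPM in control day 2 and 77.9, 72.6 and 59.03 CPM in ESC (1.205 ± 0.08, adjusted p = 1.48e-09). Its cofactor Dnmt3l had 96.01, 98.6 and 90.6 CPM in KO cells, 306, 316 and 297 CPM in control day 2 and 69.3, 51.2 and 30.2 CPM in ESC. The rise was 0.92 ± 0.19, with a log2 fold change of -1.69 ± 0.18 against control day 2 (adjusted p = 3.15e-06). Dnmt3b had 67.6, 70.9 and 71.8 CPM in KO cells, 121, 119 and 121 CPM in control day 2 and 194, 152 and 74.8 CPM in ESC. Its log2 fold change was -0.999 ± 0.20 against ESC (adjusted p = 0.000406) and -0.78 ± 0.20 against control day 2 (adjusted p = 0.00586). ESC 3, the ESC library with the least fibroblast RNA, was close to KO. With the fibroblast collagen level as a covariate, the log2 fold changes were -0.64 against ESC and -1.32 against control day 2. The demethylating enzymes Tet1 and Tet2 fell (-1.30 ± 0.09 and -1.16 ± 0.08). Tet3 had 19.6, 19.2 and 17.9 CPM in KO cells, 11.7, 9.45 and 13.4 CPM in control day 2 and 15.2, 13.3 and 13.98 CPM in ESC, a rise of 0.42 ± 0.12.

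Several Nodal and activin genes, the feedback inhibitors among them, rose in KO cells. Of 16 tested, 9 rose, 5 fell and 2 were held (median 0.39), and 9 were higher and 2 lower in KO cells than in control day 2. Lefty1, a secreted Nodal inhibitor that Nodal itself induces, had 67.3, 38.7 and 47.8 CPM in KO cells, 11.2, 6.99 and 12.3 CPM in control day 2 and 2.82, 1.49 and 1.12 CPM in ESC. Its rise over ESC was 4.82 ± 0.38 (adjusted p = 2.12e-09) and KO cells were 2.33 ± 0.24 above control day 2 (adjusted p = 2.65e-06), with no overlap between any of the groups. Lefty2 rose by 4.25 ± 0.40 (4.83 without ESC 1). The receptor gene Acvr2a was held (0.18 ± 0.11), and Acvr1b fell by 0.45 ± 0.07.

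Most endoderm genes rose in KO cells: of 17 tested, 13 rose, 1 fell and 2 were held (1 without ESC 2, ESC 3 or KO 2), with a median of 1.80. The median of control day 2 over ESC was 1.42, and 6 genes were higher and 3 lower in KO cells than in control day 2. The 6 became 2 without control 1 and 3 without control 2, control 3, KO 1 or KO 3. Gata6, the factor that specifies primitive endoderm and that lies on chromosome 18, had 80.1, 88.5 and 93.7 CPM in KO cells, 93.7, 75.8 and 84.5 CPM in control day 2 and 2.89, 2.03 and 6.20 CPM in ESC (4.55 ± 0.22, adjusted p = 2.21e-11; 5.15 without ESC 3). The day 2 groups overlapped (0.05 ± 0.14 between them, adjusted p = 0.813). Among the matrix genes of the list, Col4a1 rose by 2.32 ± 0.11 and Lamb1 by 1.41 ± 0.06, Lamc1 was held (0.10 ± 0.06) and Sparc fell by 0.41 ± 0.07. Cubn, which codes for the endocytic receptor cubilin of visceral endoderm, had 43.4, 22.7 and 27.5 CPM in KO cells, 12.4, 14.1 and 10.8 CPM in control day 2 and 0.605, 0.203 and 0.660 CPM in ESC (5.96 ± 0.78 against ESC; 1.32 ± 0.27 against control, adjusted p = 0.00104). In bulk RNA a few cells with much of a transcript and many cells with little cannot be told apart. Among 7 primitive streak genes 2 rose and 2 fell (1 without ESC 1, KO 1 or KO 3).

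More FGF and ERK genes fell than rose. Of 16 feedback and target genes, 10 fell, 4 rose and 4 were held (7 without ESC 1), with a median of -0.42. Spry2, an ERK feedback inhibitor, had 14.1, 17.1 and 16.9 CPM in KO cells, 17.1, 17.1 and 18.8 CPM in control day 2 and 94.4, 87.4 and 50.5 CPM in ESC (-2.27 ± 0.17, adjusted p = 1.09e-08). Dusp4, an ERK phosphatase gene, had 19.4, 16.8 and 17.4 CPM in KO cells, 28.1, 24.2 and 23.6 CPM in control day 2 and 5.84, 5.89 and 4.55 CPM in ESC (1.72 ± 0.11), and the receptor gene Fgfr2 rose by 0.96 ± 0.13. The immediate early genes, which respond to growth factors and handling within minutes, gave some of the largest falls. Of 20, 15 fell, none rose and 2 were held, with a median of -2.01. In KO cells 6 were lower and none higher than in control day 2 (10 lower with the collagen covariate described below). Fos had 1.39, 2.66 and 2.57 CPM in KO cells, 5.47, 6.85 and 5.62 CPM in control day 2 and 227, 196 and 113 CPM in ESC (-6.32 ± 0.27, adjusted p = 8.06e-12; -1.42 ± 0.30 against control, adjusted p = 0.00102). Egr1 had 0.446, 1.12 and 0.857 CPM in KO cells, 1.004, 0.378 and 1.08 CPM in control day 2 and 415, 352 and 178 CPM in ESC (-8.56 ± 0.49). Fosb and Egr2 fell (-9.69 ± 0.94 and -6.06 ± 0.95; Egr2 -6.78 without KO 1); Klf6 and Ctgf were held (-0.15 ± 0.10 and -0.01 ± 0.10).

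Within ESC the levels of Fos, Egr1 and Fosb followed the fibroblast markers, highest in ESC 1 and lowest in ESC 3. With the mean log2 CPM of Col1a1, Col1a2 and Col3a1 as a covariate, 14 of the 20 immediate early genes fell, Fos with a log2 fold change of -6.05. ESC 3, whose summed fibroblast level of 414 CPM was below that of every KO library, had 113 CPM of Fos. What part fibroblast RNA has in these falls was not tested. Id3, a BMP target, had 1.04, 1.17 and 0.814 CPM in KO cells, 2.46, 2.08 and 2.29 CPM in control day 2 and 65.8, 32.9 and 6.79 CPM in ESC (-5.12 ± 0.63; -4.29 without ESC 1 and -4.03 with the covariate). Of 11 BMP genes 4 rose, 4 fell and 3 were held. Of 10 LIF and STAT3 genes, 7 fell, 2 rose and 4 were held. Socs3, the feedback inhibitor of STAT3, had 28.3, 47.8 and 40.02 CPM in KO cells, 45.98, 36.99 and 38.3 CPM in control day 2 and 120.1, 126 and 128 CPM in ESC (-1.68 ± 0.14). Bcl3 and Stat3 also fell (-2.73 ± 0.15 and -0.83 ± 0.07). Among 16 Wnt genes 5 rose (3 without ESC 1 or KO 1), 5 fell and 3 were held. The repressor gene Tcf7l1 fell by 2.01 ± 0.09, and the Wnt inhibitor gene Dkk1 had 3.77, 2.83 and 3.26 CPM in KO cells, 0.502, 0.614 and 0.432 CPM in control day 2 and 0.806, 0.0677 and 0.330 CPM in ESC (3.01 ± 0.50, or 3.98 without ESC 1; 2.65 ± 0.42 against control, adjusted p = 6.46e-05).

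**Figure D2:**
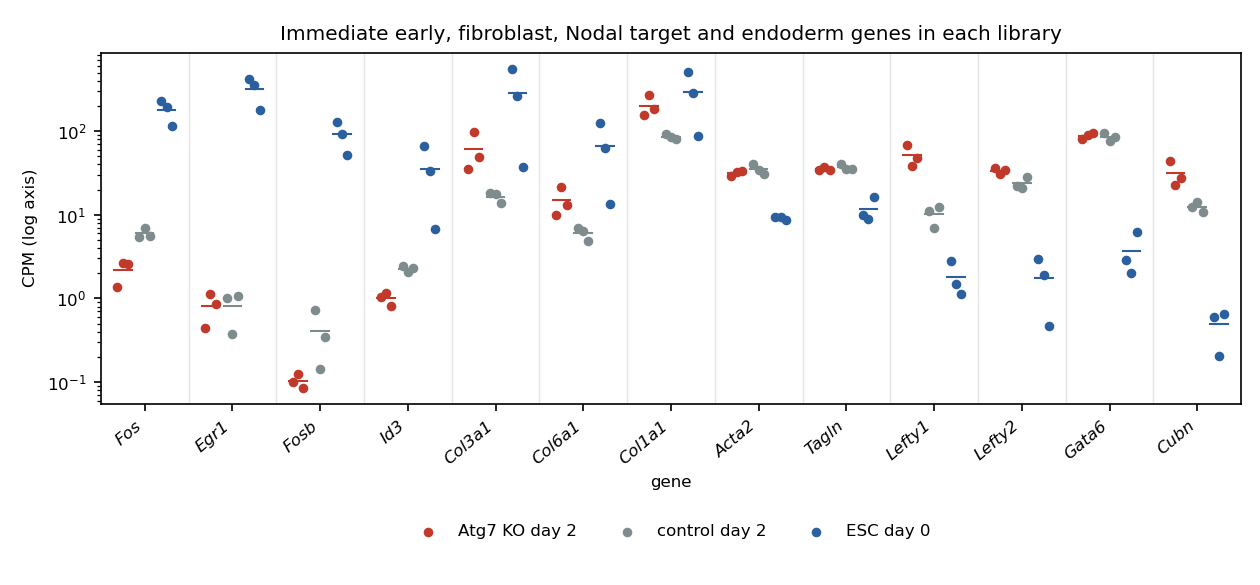
CPM (log axis) of signalling, endoderm and fibroblast genes in each library of KO day 2, control day 2 and ESC, left to right; dots are libraries and lines are means. Fos is at 1.39 to 2.66 CPM in KO cells and 113 to 227 CPM in ESC, and Lefty1 at 38.7 to 67.3 CPM in KO cells and 1.12 to 2.82 CPM in ESC; the 3 ESC libraries spread widely for Col3a1.

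Fibroblast genes themselves could not be called as a set. Of 26 tested, 8 rose, 5 fell, none was held (2 without ESC 3) and 13 were neither. The counts depend on the ESC libraries: 3 fell without ESC 1, 15 fell without ESC 3, and 20 rose with the covariate, which is made of 3 of these genes. Col3a1, a fibrillar collagen of fibroblasts, had 34.9, 96.7 and 49.6 CPM in KO cells, 18.1, 17.5 and 13.7 CPM in control day 2 and 557, 262 and 37.5 CPM in ESC (-2.24 ± 0.55, or -1.31 without ESC 1). Col6a1 had 10.01, 21.3 and 13.2 CPM in KO cells, 6.92, 6.47 and 4.84 CPM in control day 2 and 126, 62.2 and 13.3 CPM in ESC (-2.17 ± 0.47, or -1.34 without ESC 1). The contractile genes Acta2 and Tagln, which are not restricted to fibroblasts, did not follow the collagens. Acta2 had 29.3, 32.5 and 33.3 CPM in KO cells, 40.3, 34.3 and 30.6 CPM in control day 2 and 9.47, 9.47 and 8.71 CPM in ESC (1.78 ± 0.14), and Tagln rose by 1.58 ± 0.16. KO 2 held the most collagen RNA of the day 2 libraries.

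Targets of the integrated stress response fell in KO cells, to a level above that of control day 2 for most. Of 21 tested, 17 fell, none rose and 3 were held (1 without KO 2), with a median of -1.40; 12 were higher and 1 lower in KO cells than in control day 2 (7 higher and 4 lower with the covariate, and 2 lower without KO 2 or control 3). Ppp1r15a, which codes for GADD34 and restores translation, had 19.9, 22.1 and 22.5 CPM in KO cells against 80.5, 70.1 and 65.4 CPM in ESC (-1.74 ± 0.09). Sesn2 and the amino acid transporter gene Slc7a5 fell as well (-1.33 ± 0.07 and -1.54 ± 0.09). Against control day 2, Ppp1r15a was at 0.35, a call lost with the covariate. Sesn2 was at 0.22, a call lost without control 1, KO 1 or KO 3, and Slc7a5 at -0.10, not called. Atf4, Trib3, Nupr1, Asns and Chac1 are described here as the list's transcription factor and known ATF4 targets and were chosen after their values were seen. Atf4 had 174, 173 and 172 CPM in KO cells, 93.7, 113 and 91.3 CPM in control day 2 and 572, 588 and 406 CPM in ESC (-1.59 ± 0.12 against ESC, adjusted p = 8.76e-09; 0.80 ± 0.12 against control, adjusted p = 7.85e-05). Asparagine synthetase, Asns, had 539, 494 and 503 CPM in KO cells, 332, 348 and 319.5 CPM in control day 2 and 994, 1081 and 767 CPM in ESC (-0.89 ± 0.09 and 0.62 ± 0.09, adjusted p = 4.7e-05 for the second). Chac1, which codes for a glutathione-degrading enzyme, had 11.6, 9.03 and 11.2 CPM in KO cells, 3.29, 2.55 and 3.28 CPM in control day 2 and 31.97, 37.4 and 14.4 CPM in ESC (-1.40 ± 0.24 and 1.80 ± 0.29, adjusted p = 0.000131 for the second). Nupr1 had 21.7, 25.5 and 22.8 CPM in KO cells, 7.53, 9.07 and 6.78 CPM in control day 2 and 80.9, 91.4 and 54.7 CPM in ESC. In all 4 the KO libraries stood between the other groups with no overlap, and ESC 3, the ESC library with the least fibroblast RNA, was the lowest of ESC. Trib3 fell by 1.98 ± 0.13, with 0.41 against control day 2. That call was lost without control 1, control 3 or KO 1, and with the covariate. Cebpg and Ddit3 (CHOP) were held (-0.10 ± 0.08 and -0.01 ± 0.20). Against control day 2 they were at 0.37, called, and -0.47, not called.

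Amino acid supply went the same way. Of 16 serine and one-carbon genes 13 fell and 3 were held (5 without ESC 1), with a median of -0.54. Tdh, the threonine dehydrogenase that mouse ESCs are known to depend on, had 29.2, 43.98 and 34.9 CPM in KO cells, 33.5, 31.6 and 33.5 CPM in control day 2 and 724, 651 and 337 CPM in ESC (-3.98 ± 0.20, adjusted p = 2.07e-10). Aldh18a1, of proline synthesis, and the mitochondrial serine enzyme gene Shmt2 fell (-1.24 ± 0.10 and -1.25 ± 0.12). Of 20 cytosolic aminoacyl-tRNA synthetase genes 17 fell, none rose and 6 were held (median -0.79), among them Vars (-0.96 ± 0.05), Aars (-1.18 ± 0.07) and Mars (-1.11 ± 0.08); 9 were higher and 3 lower in KO cells than in control day 2 (1 lower without control 2). Of 18 ER chaperone genes 10 fell, 4 rose and 10 were held (median -0.19), 1 higher and 7 lower than in control day 2.

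Mitotic genes fell less from the ESC level in KO cells than S phase genes did. Of 24 G2 and M genes, 16 were held (66.7%), 12 fell and 4 rose (7 rose without ESC 3, and 2 with chromosomes 18, X and Y left out), with a median of -0.17. Against control day 2, 19 were higher and none lower in KO cells, with a median of 0.42. Aurka, a mitotic kinase gene, had 98.5, 90.6 and 92.6 CPM in KO cells, 54.9, 55.1 and 53.97 CPM in control day 2 and 203, 195 and 175 CPM in ESC (-1.02 ± 0.06 against ESC, adjusted p = 1.14e-09; 0.78 ± 0.07 against control, adjusted p = 4.18e-07). Plk1 had 103, 84.1 and 96.9 CPM in KO cells, 61.2, 60.2 and 62.6 CPM in control day 2 and 197, 194 and 169 CPM in ESC (-0.98 ± 0.07 and 0.63 ± 0.07). KO libraries of both lay between the other groups. Ccna2 was held, with 210.1, 204 and 213 CPM in KO cells, 182, 173 and 187 CPM in control day 2 and 227, 213 and 223 CPM in ESC (-0.08 ± 0.05), and so was the spindle gene Tpx2 (-0.30 ± 0.04). Above ESC were Cdc25c and Kif20a, both on chromosome 18, at 1.12 ± 0.08 and 0.20 ± 0.05, and Nusap1 and Cdc25b on chromosome 2, at 0.43 ± 0.06 and 0.77 ± 0.11. Of 24 S phase genes 21 fell, none rose and 9 were held (median -0.55); none was higher and 13 were lower in KO cells than in control day 2. Rrm2, a ribonucleotide reductase subunit gene, had 262, 309.8 and 281 CPM in KO cells, 421, 436 and 420.00 CPM in control day 2 and 641, 699 and 737 CPM in ESC (-1.28 ± 0.07 and -0.58 ± 0.07). The replication clamp gene Pcna fell by 1.26 ± 0.05, with -0.05 ± 0.05 between KO and control (adjusted p = 0.396). Counts of cells in each phase were not measured.

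**Figure D3:**
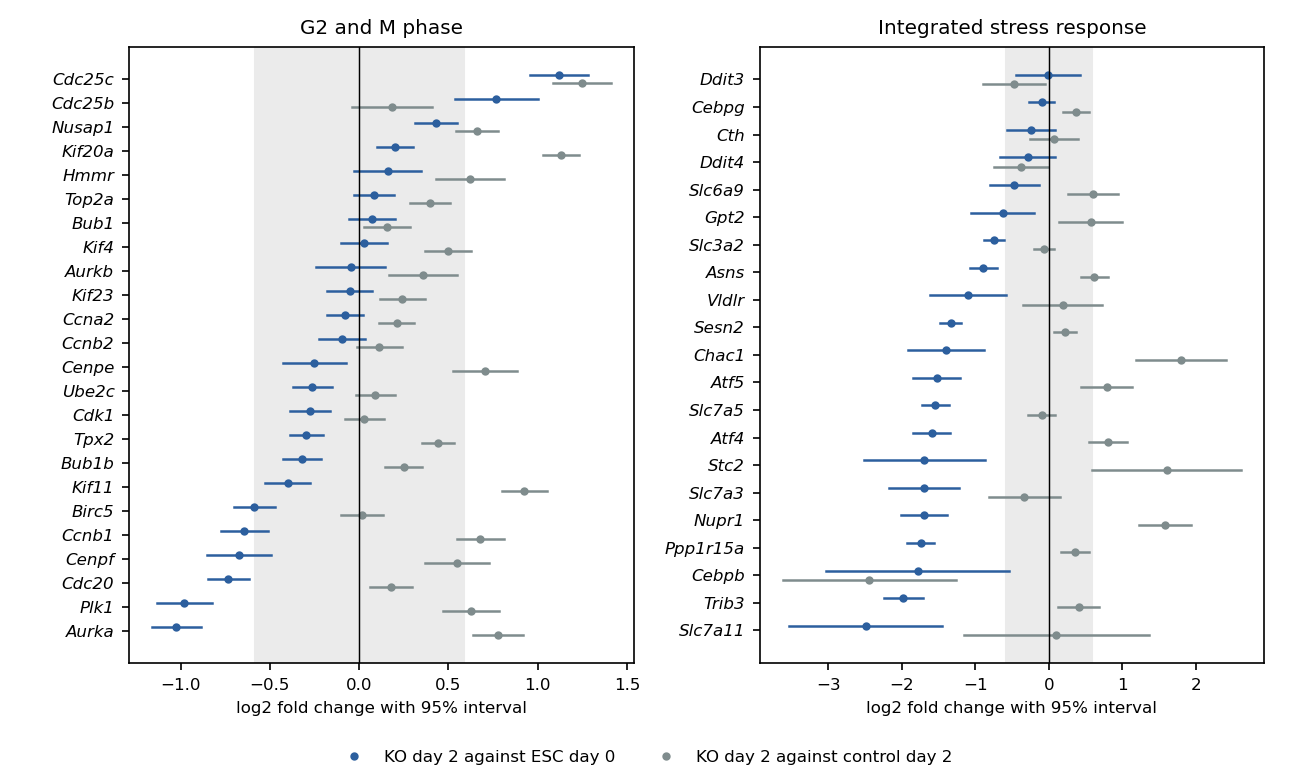
Log2 fold change with its 95% interval for the G2 and M phase and the integrated stress response genes, KO day 2 over ESC in blue and KO day 2 over control day 2 in grey; the shaded band is a change under 1.5-fold. Most G2 and M genes lie in or near the band against ESC and are higher than in control day 2, while most stress genes lie to the left of the band against ESC.

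Respiratory chain and proteasome genes fell by small amounts. Of 35 complex I genes 30 fell, none rose and 20 were held, with a median of -0.35. Of 33 genes of complexes II to V, 30 fell and 13 were held (median -0.59). The complex I subunit gene Ndufb6 and the cytochrome oxidase gene Cox5a fell (-0.92 ± 0.07 and -1.05 ± 0.08). Of 38 proteasome genes 34 fell, none rose (2 without ESC 3) and 9 were held (median -0.56). Psmc1, an ATPase of the regulatory particle, had 180.2, 191 and 177 CPM in KO cells, 175, 181 and 169.8 CPM in control day 2 and 321, 314 and 316 CPM in ESC (-0.79 ± 0.05), with 0.06 ± 0.05 between KO and control (adjusted p = 0.321). Of 62 cytosolic ribosomal protein genes 46 were held (74.2%), 32 fell and 10 rose (6 without ESC 2), with a median of -0.17, and 21 were higher and 1 lower in KO cells than in control day 2. Rpsa rose by 1.03 ± 0.05; Rpl17 and Rps14 of chromosome 18 rose by 0.75 ± 0.05 and 0.62 ± 0.07. Pseudogene copies can take reads of these genes, so single members are uncertain.

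Most cholesterol genes rose in KO cells, and close to as many glycolysis genes fell as were held. Of 24 cholesterol genes 14 rose, 6 fell and 10 were held (median 0.28), with 1 higher and 13 lower than in control day 2. Dhcr7, of the last step of synthesis, had 127, 139 and 135 CPM in KO cells, 178, 189 and 169 CPM in control day 2 and 64.1, 62.5 and 63.4 CPM in ESC (1.08 ± 0.06 and -0.42 ± 0.06). The sterol carrier gene Stard4 (chromosome 18) and Hsd17b7 rose by 2.01 ± 0.10 and 1.43 ± 0.10, and Pmvk fell by 0.80 ± 0.10. Of 19 glycolysis genes 9 fell, 4 rose and 10 were held (median -0.22), with none higher and 8 lower than in control day 2. Hk1, of the first step, had 90.4, 94.3 and 92.3 CPM in KO cells, 142, 147 and 134 CPM in control day 2 and 189, 205 and 229 CPM in ESC (-1.17 ± 0.07 and -0.61 ± 0.07). Pgam1 fell by 1.02 ± 0.07, and the lactate exporter gene Slc16a3 rose by 2.08 ± 0.32. Of 17 other hypoxia targets 8 rose, 4 fell and 1 was held (2 without ESC 1 or ESC 3); P4ha1, a collagen prolyl hydroxylase gene, rose by 1.83 ± 0.14. Of 21 purine genes 14 fell and 5 were held (8 without ESC 1); besides Hprt, the synthesis genes Pfas and Gart fell (-1.01 ± 0.05 and -0.82 ± 0.04).

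Stress and death lists were mixed. Of 16 NRF2 targets 4 rose, 7 fell and 7 were held. The ferritin light chain gene Ftl1, which has pseudogene copies, had 861, 818 and 802 CPM in KO cells, 866, 1134 and 914 CPM in control day 2 and 4148, 4220.4 and 4939 CPM in ESC (-2.42 ± 0.10), while Me1 and Gclc rose by 1.41 ± 0.08 and 0.99 ± 0.07. Of 20 p53 targets 8 rose, 4 fell and 4 were held; 13 rose and 7 were held without ESC 3, 7 fell without ESC 1, and 2 were held without any of the KO libraries in turn. Sesn1 and Pmaip1 (NOXA; chromosome 18) rose by 1.03 ± 0.11 and 1.33 ± 0.16, and Cdkn1a (p21) fell by 0.52 ± 0.11. Of 15 BCL2 family genes 5 rose, 6 fell and 2 were held.

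**Figure D4:**
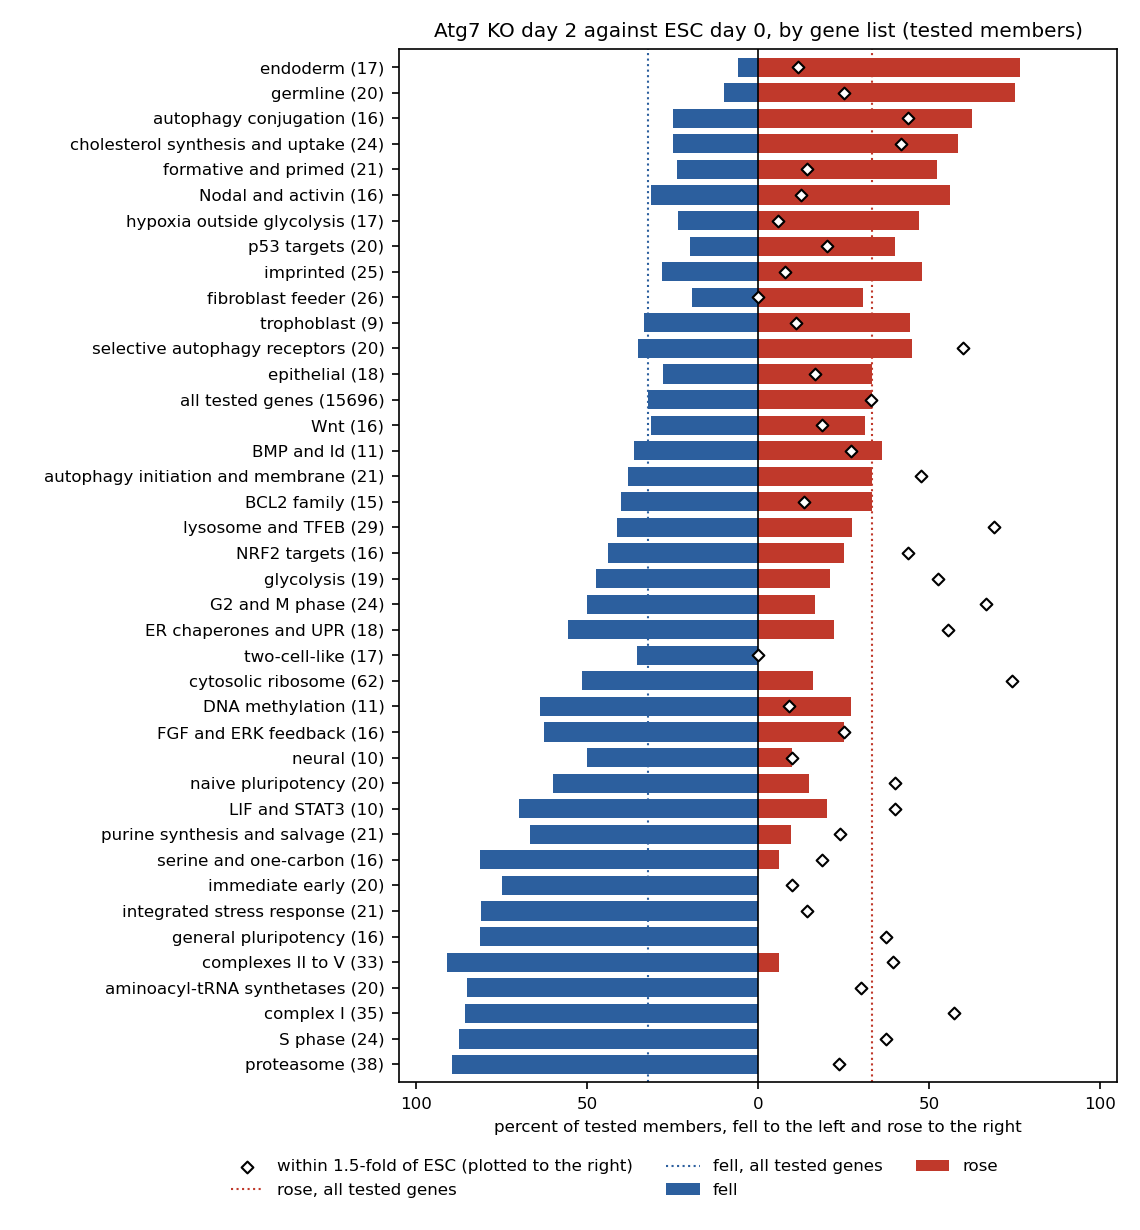
Percent of the tested members of each list with at least 9 of them that rose (right) or fell (left) in KO day 2 against ESC; diamonds mark the percent held within 1.5-fold and dotted lines the shares over all 15696 genes. Among the lists drawn, complexes II to V and the proteasome had the largest shares of fallen genes (90.9% and 89.5%), and ribosomal proteins the largest share held (74.2%).

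Most germline genes rose: of 20 tested, 15 rose, 2 fell and 5 were held, with a median of 1.01. The median of control day 2 over ESC was 1.43, and 1 gene was higher and 7 lower in KO cells than in control day 2. Asz1, of the piRNA pathway, had 60.4, 58.6 and 59.7 CPM in KO cells, 75.9, 68.2 and 78.1 CPM in control day 2 and 2.55, 3.65 and 7.65 CPM in ESC (3.68 ± 0.21). The meiotic genes Sycp3 and Smc1b rose by 2.16 ± 0.11 and 1.92 ± 0.14. Tex19.1 fell by 0.90 ± 0.07. Imprinted genes moved in both directions: of 25, 12 rose, 7 fell and 2 were held. Grb10, a growth inhibitor, had 41.9, 43.4 and 38.9 CPM in KO cells, 42.5, 47.2 and 39.4 CPM in control day 2 and 253, 253 and 250.1 CPM in ESC (-2.61 ± 0.08). Sgce and Mest, both on chromosome 6, had rises of 2.53 ± 0.09 and 2.05 ± 0.08.

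The 2-cell genes, expressed in a rare state of ESC cultures, were lower in KO cells than in control day 2, and their comparison with ESC turns on ESC 3. Of 17 tested, 6 fell and none rose (3 fell and 5 rose without ESC 3), and 11 were neither called nor held, with a median of -0.57. Against control day 2, 15 were lower and none higher in KO cells, with a median of -2.13. Zscan4a had 0.545, 0.791 and 0.728 CPM in KO cells, 3.18, 3.87 and 4.32 CPM in control day 2 and 2.49, 2.44 and 8.84 CPM in ESC (-2.72 ± 0.49, or -1.81 without ESC 3; -2.45 ± 0.49 against control, adjusted p = 0.000475). Zscan4b fell (-3.58 ± 0.72, or -2.89 without ESC 3 and -5.28 without KO 3). The Zscan4 copies are nearly identical, so reads may be split between them.

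Epithelial keratins rose in KO cells, but less far than in control day 2. Of 18 epithelial genes 6 rose, 5 fell and 3 were held (median 0.04), with 12 lower than in control day 2. Krt18 had 38.3, 32.6 and 37.4 CPM in KO cells, 69.3, 66.3 and 65.7 CPM in control day 2 and 6.45, 5.35 and 5.28 CPM in ESC (2.66 ± 0.16 against ESC, adjusted p = 4.14e-10; -0.89 ± 0.12 against control, adjusted p = 2.67e-05). Its partner Krt8 had 33.3, 30.8 and 33.6 CPM in KO cells, 68.2, 60.5 and 64.9 CPM in control day 2 and 5.51, 7.04 and 5.80 CPM in ESC (2.41 ± 0.15 and -0.99 ± 0.11). No library overlapped another group. Cdh1, the cadherin of ESC colonies, was held, with 499, 530.4 and 535 CPM in KO cells, 627, 679.7 and 623 CPM in control day 2 and 522, 551 and 494 CPM in ESC (-0.003 ± 0.05 and -0.30 ± 0.05). Esrp1, an epithelial splicing factor gene, had 1.88, 3.12 and 2.79 CPM in KO cells, 13.8, 11.9 and 14.9 CPM in control day 2 and 9.14, 13.3 and 4.81 CPM in ESC (-1.79 ± 0.29 and -2.37 ± 0.28). Cldn7, of tight junctions, fell by 1.23 ± 0.22 against ESC. Of 9 trophoblast genes 4 rose (2 without ESC 1 or ESC 2) and 3 fell (1 without ESC 1, ESC 2 or KO 1). Tfap2c, shared by trophoblast and naive cells, had 51.3, 54.7 and 51.5 CPM in KO cells, 33.8, 37.7 and 31.3 CPM in control day 2 and 159, 177 and 249 CPM in ESC (-1.89 ± 0.12 and 0.62 ± 0.12). Of 10 neural genes 5 fell, among them Tubb3 and Map2 (-0.81 ± 0.09 and -1.45 ± 0.19), and 1 rose (none without ESC 1). Among the 4 interferon-induced transmembrane genes tested, Ifitm3 and Ifitm2 fell (-1.25 ± 0.11 and -0.66 ± 0.06), while Ifitm1 rose to 55.5, 52.9 and 46.2 CPM in KO cells, against 12.8, 13.1 and 11.8 CPM in control day 2 and 31.1, 30.1 and 21.96 CPM in ESC (0.90 ± 0.12).

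Most genes with the largest changes were also far from ESC in control day 2. Timd2, a ferritin receptor gene, had 21.5, 16.1 and 19.5 CPM in KO cells and 10.8, 11.01 and 12.4 CPM in control day 2 with no count in ESC, at least 282-fold higher in KO cells against a floor of 3 counts over the ESC group. Its relative Havcr1 had 11.2, 8.24 and 9.64 CPM in KO cells, 4.13, 4.72 and 5.10 CPM in control day 2 and 0.0672, 0.0677 and 0.132 CPM in ESC (6.65 ± 0.63 and 1.05 ± 0.18). Kbtbd11 had 83.3, 85.4 and 84.2 CPM in KO cells, 71.04, 67.1 and 73.6 CPM in control day 2 and 0.134, 0.271 and 0.330 CPM in ESC (8.38 ± 0.28). Mid1, an X-linked ubiquitin ligase gene, had 289.9, 281 and 282 CPM in KO cells, 319, 341 and 313 CPM in control day 2 and 4.23, 3.65 and 2.64 CPM in ESC (6.34 ± 0.12). Further large increases, besides those of Cubn and Lefty1, were those of Xpnpep2 (7.55 ± 1.24, or 9.65 without ESC 1), Pramel3 (6.19 ± 0.42, or 7.36 without ESC 3), Foxq1 (5.33 ± 0.39, or 6.11 without ESC 3), Rasgrp3 (5.27 ± 0.53) and Fbp2 (4.89 ± 0.24).

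On the other side, the neighbouring oligodendrocyte factor genes Olig1 and Olig2 were near 0 outside ESC. Olig2 had no count in KO cells, 0.0558, 0.0472 and 0.0432 CPM in control day 2 and 19.6, 17.9 and 12.1 CPM in ESC, at least 372-fold lower in KO cells against a floor of 3 counts over the group. Olig1 had 0, 0.0416 and 0.0857 CPM in KO cells, 0.112, 0.378 and 0.346 CPM in control day 2 and 18.5, 20.6 and 17.7 CPM in ESC (-8.53 ± 0.88, or -9.32 without KO 3). Ubd, a ubiquitin-like modifier gene, had no count in KO cells or control day 2 and 8.73, 8.59 and 0.989 CPM in ESC, at least 137-fold lower in KO cells, but DESeq2 did not call it. Also among the 12 largest decreases were the apolipoprotein gene Apoa2 (-5.79 ± 0.49), the pseudogene Rps15a-ps6 (-5.63 ± 0.26), which may share reads with its parent gene, Eyelinc18 (-5.27 ± 0.33, or -5.91 without KO 2) and the secreted pentraxin gene Ptx3 (-5.41 ± 0.98, or -6.07 without KO 3). Ptx3 was at 10.9, 7.85 and 0.923 CPM in ESC, in the order of the fibroblast markers, whose part in its fall was not tested. The rest of the 12 were Hprt and the immediate early genes Fos, Fosb, Egr1 and Egr2.

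The 10 held genes with the highest counts outside the ribosomal proteins were Eef2, Pabpc1, Gapdh, Atp5b, Nedd4, Rack1, Fn1, Atp5a1, Ppia and Eif4a1. The poly(A)-binding protein gene Pabpc1 had 3868, 4136 and 4175 CPM in KO cells, 4211, 4555 and 4068 CPM in control day 2 and 3808, 3823 and 4493 CPM in ESC (0.01 ± 0.06, 95% interval -0.13 to 0.14). The others passed the test with changes under 1.5-fold. Those of Eef2 (0.25), Gapdh (0.30), Rack1 (0.30) and Atp5a1 (0.17) were rises, and those of Atp5b (-0.31), Nedd4 (-0.17), Fn1 (-0.35), Ppia (-0.32) and Eif4a1 (-0.32) were falls. Atp5a1, an ATP synthase gene on chromosome 18, had 1857, 1931 and 1891 CPM in KO cells, 1428, 1468 and 1380.05 CPM in control day 2 and 1647, 1705 and 1712 CPM in ESC, and was 0.41 ± 0.04 above control day 2 (adjusted p = 2.27e-06).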

How the data were processed

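PolyA RNA was sequenced from 15 libraries of mouse ESCs and cells induced from them, in 5 groups of 3 by their titles. The authors deposited raw read counts per gene symbol, 1 table a library. Per the submitters' processing notes the tools were STAR, featureCounts, StringTie and DESeq2 with builds GRCm38 and mm10; for versions, strandedness and gene annotation nothing is given in the sources used here, so overlapping and antisense genes may share reads. Positions were joined by symbol from a GENCODE annotation of GRCm38. Totals ran from 14059237 to 23371546 counts. A list entry or gene was tested where it passed edgeR's filterByExpr (minimum count 10, minimum total 15); 3371 of the genes left out had 0 counts in every library.

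All 15 libraries entered 1 fit of edgeR 4.0.16 (R 4.3.3; TMM factors, quasi-likelihood test, no covariate), from which KO day 2 against ESC, KO day 2 against control day 2 and control day 2 against ESC were taken as contrasts, with Benjamini-Hochberg adjusted p-values over all 15696 genes and a threshold of 0.05. CPM values use the TMM factors and are not corrected for gene length, so levels are not compared between genes. Alternatives were RLE and upper quartile scaling, other filters, a fit without the other groups, a block on replicate number, the mean log2 CPM of Col1a1, Col1a2 and Col3a1 as a covariate, each library left out, other fold limits, chromosomes 18, X and Y left out, and DESeq2 1.42.0.

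Genes named are Atg7, Hprt, the 12 largest increases and decreases without overlap (mean of 5 CPM or more on the higher side), the 10 held genes with the highest CPM outside the ribosome, members of the pluripotency, formative, autophagy conjugation, cargo receptor, fibroblast and Ifitm lists, and up to 3 risen, fallen and held members of each other list by p or interval. Some genes that this rule names are not reported here. The comparison, lists and rules were chosen with earlier results of these data known. The libraries were not treated as paired by replicate number. Same-numbered KO and ESC libraries deviated from their group means with correlations of -0.08, 0.09 and 0.12 across genes. For KO and control day 2 these were -0.12, 0.19 and 0.16, and 0.19 and 0.16 were the highest between those groups.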

Additional observations from a re-analysis of the deposited data

Results flagged for a closer look

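In 9 of the genes described, KO day 2 and control day 2 moved in opposite directions from ESC, both past the test, and the difference between KO and control passed the test as well; both changes are set against the same ESC libraries. Spic differed by 3.19 on the log2 scale between KO and control day 2 (edgeR adjusted p = 2.19e-07), with 1.02 in KO and -2.18 in control against ESC. Ifitm1 differed by 2.04 (0.90 in KO and -1.14 in control), Otx2 by 1.33 (0.84 and -0.49), Tet3 by 0.71 (0.42 and -0.30) and Nusap1 by 0.66 (0.43 and -0.23). Kif20a and Atp5a1, both on chromosome 18, differed by 1.13 (0.20 and -0.93) and 0.41 (0.17 and -0.24). In the other direction, Cldn7 differed by -1.91 (-1.23 in KO and 0.67 in control) and Pou3f1 by -1.61 (-0.86 and 0.75; the KO change did not pass the test without ESC 1). No value was tested for samples standing apart within a group, since each group has 3 libraries.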

How the results depend on the processing

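The count of 10248 genes changed between KO day 2 and ESC was 9501 to 11095 with each library left out (lowest without KO 3, highest without ESC 3), 10138 with DESeq2, 10240 with RLE and 10256 with upper quartile scaling, 10555 with the collagen covariate and 7667 under the stricter filter, which tests fewer genes. Tested against a 1.5-fold change in place of none, 4076 genes passed; between KO and control day 2 the same test passed 847 genes, against 6556 without a fold minimum (5112 to 5626 with each library left out). The 5160 genes held within 1.5-fold became 1847 with the tighter limit tried and 9046 with a limit of 2-fold. They ran from 4790 to 5160 with each library left out. Fitted on only the groups compared, 8595 genes changed against ESC, 4564 were held and 8532 differed between KO and control day 2. List counts moved in that fit too. For example, 15 glycolysis genes in place of 8 were lower in KO cells than in control day 2, and 0 formative genes in place of 3 were held. With the replicate number as a block, 10153 genes changed, 5145 were held and 6393 differed between KO and control day 2, within 1.5 times of the values without it. KO 1 and KO 2 correlated better with an ESC library of another number. Among the control day 2 libraries, KO 2 and KO 3 correlated best with that of their own number.

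Of 209 genes named or open to naming, 187 were called against ESC. Leaving aside the test against a 1.5-fold change, which small changes cannot pass, 2 calls were lost. These were the call of Pou3f1 without ESC 1 and that of Ubd with DESeq2, and none turned its direction. Of 119 called against control day 2, 31 lost the call with 1 library left out. Under another alternative 20 lost it, again leaving aside the 1.5-fold test. Col3a1 was -0.0096 between KO and control day 2, against 1.89 in the fit without it, with the collagen covariate, of which it is a part. List counts of 1 to 3 genes often moved by 1 or 2 genes with 1 library left out. Scaling moved the median of all genes by at most 0.046.

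With 3 libraries a group of unstated origin, an interval wider than 1.5-fold says that depth and spread did not allow a statement, not that a gene changed or stayed; this holds for 2650 genes. Day, medium, feeders and a possible other origin of the ESC libraries, which was not tested, cannot be told apart here. Nor can a KO effect present before induction and one that arose during it.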
